A study of Rattus norvegicus with 25 samples.

Results

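Wheat aleurone was added to the diet of rats fed a control oil, and the faecal bacteria of these rats were set against those of rats fed the control oil alone. The comparison covers the arrays that carry a PO sample in the dye Cy3 and an A+PO sample in the dye Cy5, which are 6 of the 13 arrays and hold 12 of the 25 samples. All 6 arrays lie on 1 slide. The PO group (n = 6) are Wistar rats given an iso-energetic control oil over 12 weeks, and the A+PO group (n = 6) received the same oil with aleurone for the same time. The age, sex, housing and genotype of the rats are not given in the sources used here. The labels give both samples of an array the same number, and an array is named here by that number. They do not say whether same-numbered rats shared anything else, nor that each sample is a different rat, so p-values measure the spread between these samples. Every A+PO sample was labelled with Cy5 and every PO sample with Cy3, which means that the diet and the dye cannot be told apart in any difference below.

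In the wheat grain, aleurone is the innermost layer of the bran and surrounds the endosperm. It is rich in fibre, mainly arabinoxylan and beta-glucan, which bacteria of the large bowel ferment to short-chain fatty acids. The 16S rRNA gene is carried by all bacteria, with stretches common to all of them and stretches that differ between taxa. The HuGChip, a microarray built for human gut bacteria, holds probes for this gene. Its signal here came from PCR product made with universal primers, so it describes the relative make-up of that product. A lower share of signal cannot be told apart from fewer bacteria, fewer gene copies per bacterium or more product from other bacteria. The labelling kit, per the labels a ULS kit, couples the dye to guanines of the DNA. That is the DNA of the sample, whereas the guanines counted further below are those of the probes. A link between them was not tested.

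The array has 4441 probes of 25 bases with 3 spots each. Probes whose names open with the same number form a set, of which there are 66. No table used here pairs a set with a taxon, so sets are given by number only. In the 12 samples 2028 probes were detected at least once and 2413 never, where detected means that over 0.5 of a probe's usable spots were well above the local background. All tests used 1153 probes (26.0%), those with detection in 6 or more of the 25 samples, and the 53 sets with at least 3 such probes. The median raw intensity was 684 in PO 1 and 240 in A+PO 1, beside 73.0 to 129 in the other 10 samples. On array 1 the negative controls stood higher as well, at 445 in PO 1 and 123 in A+PO 1. No spot was marked as saturated, and 16.8% to 48.2% of the spots of a sample carried an outlier mark.

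The array a sample was on told more about its profile than its diet did. Spearman's rho across the 1153 probes between the PO and the A+PO sample of an array ran from 0.934 to 0.985, with a median of 0.957. Between a PO and an A+PO sample of different arrays it ran from 0.574 to 0.903, with a median of 0.771. Pairs on the same diet had medians close to that, 0.767 among PO samples and 0.780 among A+PO samples. On the 626 probes detected in all 12 samples these medians were 0.653 and 0.734, beside 0.683 for PO with A+PO on different arrays and 0.913 for partners. All 12 samples were closest to the sample that shared their array, and 11 of 12 were on those 626 probes. These correlations are descriptions across probes, which are not independent, and the samples of an array also share their spots. The array accounted for 78.0% of the variation in Bray-Curtis dissimilarity and for 90.6% of that in ranks, where diet accounted for 12.5% and 2.93%. The array has more levels than the diet, and a factor with more levels takes a larger share even without an effect. The shares of array and diet are therefore not directly comparable. The Bray-Curtis shares depend on how each sample was scaled, and the shares in ranks do not. On the linseed arrays, each with an LO and an A+LO sample, partners were at 0.807 to 0.969 with a median of 0.957. These partners were not matched by number, and on some of the arrays the sources disagree on the number of the A+LO sample. Such samples were used by group only. There, LO with A+LO samples of different arrays were at 0.412 to 0.915 with a median of 0.685. The medians stood apart as on the control-oil arrays, but on the linseed arrays the ranges overlapped.

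This likeness was clearest in the probes of middle brightness. Probes were split by their mean rank over all 25 samples. Among the 596 probes of middle brightness, array partners correlated at 0.950 to 0.991, and samples of different arrays, on the same diet or not, at 0.172 to 0.813. Among the 384 dimmest probes the values were 0.568 to 0.977 for partners and -0.0989 to 0.568 for the others, so that the highest pair of different arrays, PO 3 with PO 6, reached the level of the lowest partners. Among the 173 brightest probes the range of partners overlapped widely with that of other pairs: rho was 0.170, 0.529, 0.372, -0.263, 0.0282 and -0.134 on arrays 1 to 6, beside -0.462 to 0.446 for samples of different arrays. Array 2 was above every pair of different arrays. The partners' median was 0.0993, beside 0.00470 for PO with A+PO on different arrays, and that gap was not tested. The A+PO samples shared more of their bright order with each other (median rho 0.271) than the PO samples did (median 0.0464), a difference that was not tested.

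**Figure D1:**
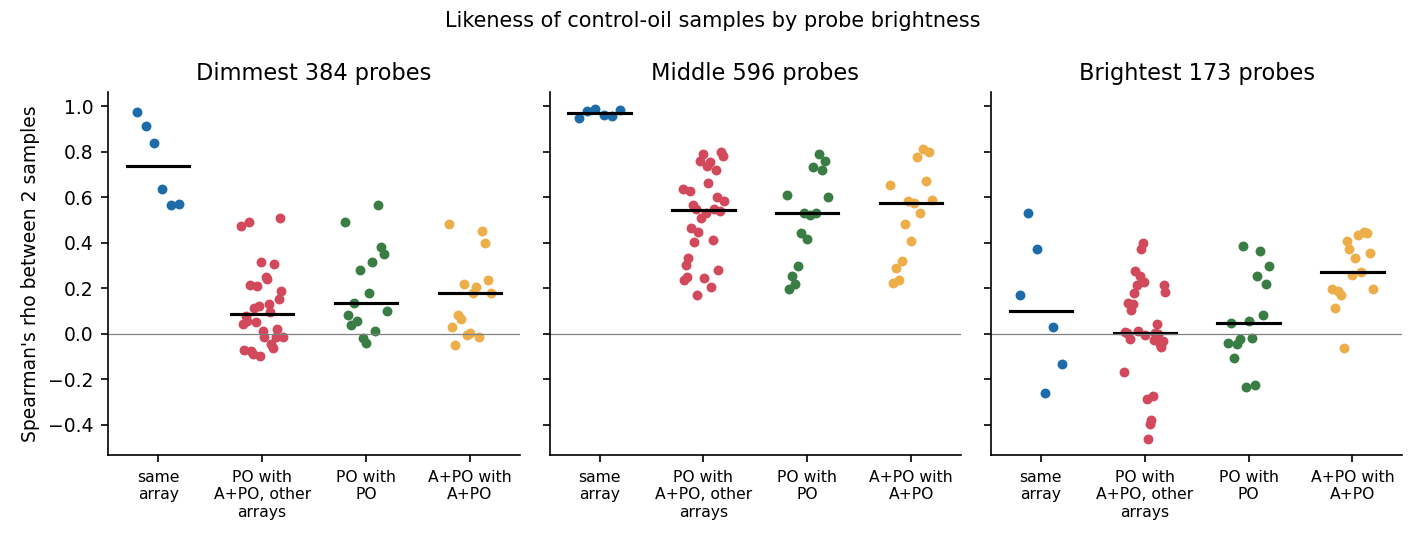
Spearman's rho (vertical axis) between pairs of control-oil samples, in separate panels for the 384 dimmest, 596 middle and 173 brightest tested probes. Each point is a pair of samples and each line the median of its class; partners on an array lie above all other pairs in the middle panel (median 0.971), reach down to the highest other pairs in the dim panel (median 0.739) and overlap with them in the bright panel (median 0.0993).

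Array partners had most of their bright probes in common and few of their very brightest. Of the 400 brightest probes of a PO sample, 368, 371, 390, 390, 392 and 391 were also among the 400 brightest of its A+PO partner on arrays 1 to 6, beside 268 to 360 for PO with A+PO samples of different arrays. Of the 50 brightest, partners shared 0, 14, 15, 0, 1 and 1, beside 0 to 21 with a median of 6 for PO with A+PO samples of different arrays. On arrays 1 and 4 the lists of the 50 brightest probes did not overlap at all. Within a sample the 173 brightest probes had an SD of 0.170 to 1.11 in log2 in PO and of 0.199 to 1.81 in A+PO. The spots of a probe had a median SD of 0.0828 to 0.182 per sample. In the samples with the lowest SD the order of the brightest probes thus rests on small differences.

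The diversity of the signal was lower with aleurone on every array, while the number of detected probes was not. The Shannon index, which rises with the evenness of the signal over probes, was 6.48, 6.17, 6.01, 6.21, 5.91 and 6.003 in PO 1 to 6. In A+PO 1 to 6 it was 6.15, 6.004, 5.76, 5.94, 5.53 and 5.73. The groups overlap, but each A+PO sample was below its partner, by 0.277 on average (SD 0.0701, n = 6 arrays; exact two-sided permutation test p = 0.03125, the smallest that 64 exchanges within arrays allow). Leaving out any of the 6 arrays raised the smallest possible p to 0.0625, and the mean difference then ran from -0.298 to -0.258. The range of signal moved with this difference: in A+PO samples the interval from the 5th to the 95th percentile of unscaled log2 intensity was 11.5 to 13.0, beside 8.52 to 11.6 in PO. Its part in the lower index was not tested.

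The number of detected probes followed the array. It was 1434, 1339, 1163, 979, 842 and 918 in PO 1 to 6, and 1534, 1204, 1219, 970, 814 and 880 in A+PO 1 to 6. Both groups thus spanned nearly the same range, with array 1 high and array 5 low in both. The mean difference was -9 probes (SD 81.5; exact permutation p = 0.781; fewer in A+PO on 4 of 6 arrays), and without array 2 it was 16.2. Counting a probe as detected when it passed 3 SD of the background gave -2093 probes (exact permutation p = 0.03125), with 1757 to 4432 detected in PO and 626 to 2481 in A+PO. By Feature Extraction's own test no probe was detected in all 6 samples of either group and in none of the other, and 1 probe was detected in all 6 PO and at most 2 A+PO samples.

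**Figure D2:**
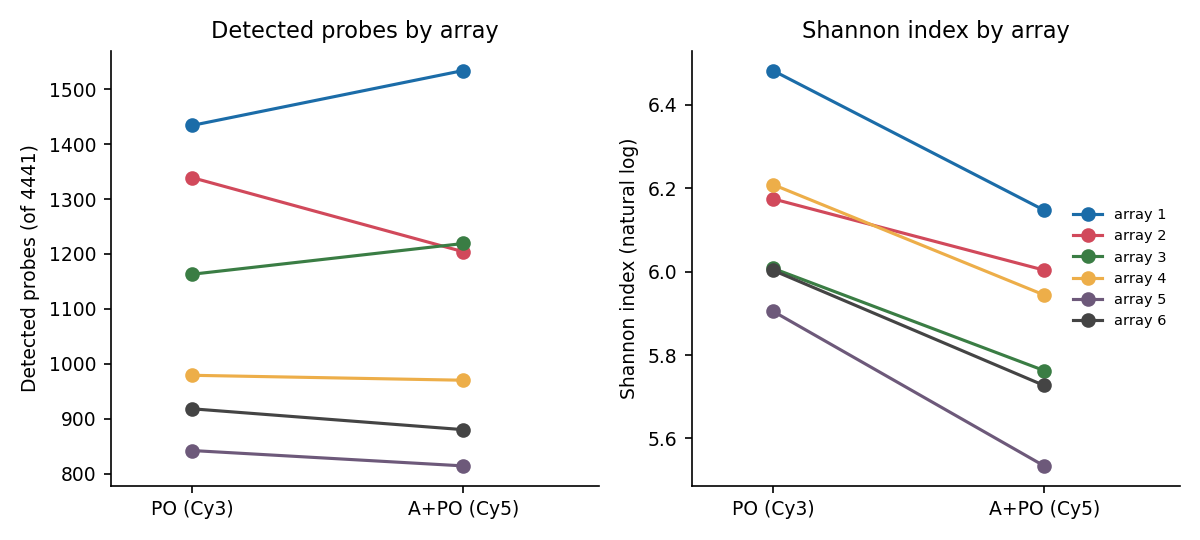
Detected probes of 4441 (left) and the Shannon index with the natural logarithm (right) in each PO sample (Cy3) and its A+PO partner (Cy5), joined by a line per array. The Shannon index is lower in A+PO on 6 of 6 arrays and the number of detected probes on 4 of 6.

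Composition as a whole gave a pseudo-F of 1.43 between the diets on Bray-Curtis dissimilarities (12.5% of the variation). The exact permutation p was 0.03125 over exchanges within arrays, the smallest that these allow. The dissimilarities were taken on scaled intensities, with the scaling used for the probes below. Under it, 1082 tested probes had a lower mean in A+PO and 71 a higher one. The pseudo-F and its share thus depend on that scaling, and other scalings were not tried for them. With samples permuted freely over arrays, p was 0.190 (exact permutation test), and with the deposited processed signal the pseudo-F was 0.844 with p = 0.0625 (exact permutation test).

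Probe by probe, the log2 intensity was lower in A+PO for most probes and higher for none, when each sample was scaled on the 75th percentile of the 405 probes detected in all 25 samples. Of 1153 probes, 918 (79.6%) were lower and 0 (0%) higher in limma with Benjamini-Hochberg adjustment, and 923 had an unadjusted p under 0.05, all lower. The median difference over probes was -1.98. This direction turned with the scaling. On the median of the tested probes, 0 were lower and 511 higher, on the median of all probes 237 were lower and 119 higher, and without scaling 493 were lower and 133 higher. The median difference was 0.86, -0.58 and -0.79 in these 3 cases. After loess within arrays, which takes out a trend with brightness, 0 probes passed in either direction, with a median of -0.75. Of the named probes, b7008_5_14 differed by -3.96 (SE 0.631, adjusted p = 0.000367) and b6956_4_10 by -3.55 (SE 0.681, adjusted p = 0.00111), each lower on 6 of 6 arrays and detected in all 12 samples.

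Probe b7008_5_14 had background-corrected intensities of 8002, 748, 4199, 3945, 1425 and 4594 in PO 1 to 6, and 2799, 379, 692, 242, 203 and 182 in A+PO 1 to 6. These include an offset of 50. In A+PO 4 to 6 they came near those of the dim probe b7005_1_19 described below, at 174, 168 and 172. Probe b6956_4_10 was as low in A+PO 5, at 162. Near that level the size of a drop is uncertain. The values that follow are again those of b7008_5_14. Its A+PO value was the lower of the pair on each array, and the groups overlap because A+PO 1 was above PO 2 and PO 5. By rank it stood at 27.7, 18.3, 42.7, 45.2, 48.8 and 56.0 in PO and at 27.6, 23.4, 38.2, 35.2, 45.7 and 35.6 in A+PO, on a scale of 0 (dimmest) to 100 (brightest tested probe of a sample). The rank difference of -5.52 (SE 3.19, adjusted p = 0.399) did not pass. Probe b6956_4_10 differed by -7.10 in rank (SE 3.02, adjusted p = 0.300), lower on 6 of 6 arrays, with array 5 moving from 62.6 to 41.1.

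The size of the log2 difference depended on how bright a probe was. In the third brightness quintile of the 1153 probes the unscaled intensity of A+PO was below that of PO on each array, by 1.33 on average (log2, SD 0.362; range -1.78 to -0.69). In the brightest quintile the mean difference was 0.90 (SD 0.739), and A+PO was above PO on 5 of 6 arrays, with -0.05 on array 3 and 1.98 on array 4. Scaled on the 75th percentile, the brightest quintile differed by -0.30 (SD 0.274) and the middle one by -2.53 (SD 0.720). The scaling level lies among bright probes, which by itself holds the difference of the brightest quintile near 0. Ranks within a sample do not change with any monotone effect on a whole channel, and were therefore tested beside the log2 values.

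**Figure D3:**
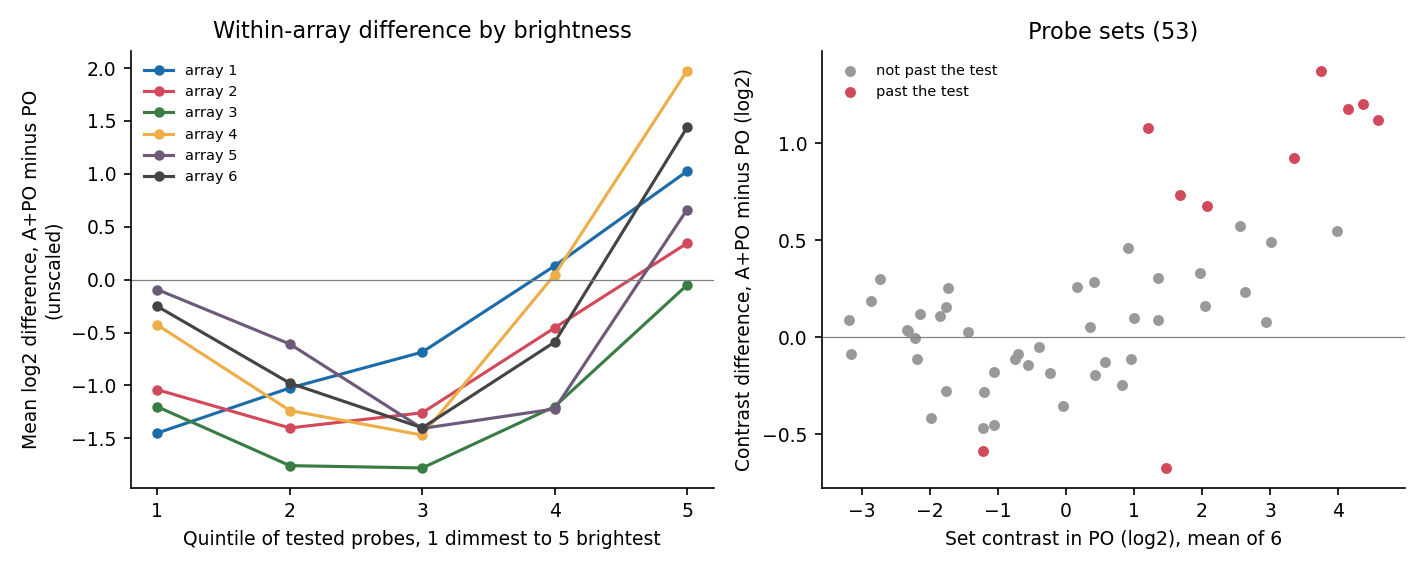
Left, mean unscaled log2 difference between A+PO and PO (vertical axis) by quintile of mean rank, with a line per array; on all 6 arrays the brightest quintile has a higher difference than the middle one. Right, contrast difference of the 53 probe sets against their contrast in PO (both log2), with the 10 sets past the test in red; the 8 sets with a positive difference past the test all have a positive contrast in PO.

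By rank within the sample, no probe passed. Of 1153 probes, 0 (0%) were lower or higher in limma with Benjamini-Hochberg adjustment, where 190 had an unadjusted p under 0.05, 93 of them lower, and the smallest adjusted p was 0.234. The median rank difference was -0.20 points, and 90% of the probes lay between -6.98 and 8.23. On all 6 arrays alike, 96 probes (8.33%) were higher in A+PO and 87 (7.55%) lower. In a fit of all 4 diet groups with the array as a random block, 26 probes passed as higher and 3 as lower.

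The 2 probes with the smallest p were b7005_1_19 and b6959_3_105, neither past the test. Probe b6959_3_105, near the top of the scale, had ranks of 88.2, 81.1, 86.3, 77.2, 87.6 and 86.2 in PO and of 95.4, 88.6, 95.0, 97.3, 99.4 and 96.4 in A+PO. All A+PO ranks were above all PO ranks, and the mean difference was 10.9 (SE 1.89, adjusted p = 0.234). In scaled log2 the same probe differed by 0.21 (SE 0.210). It lay near the scaling level in every sample, which by itself holds that difference near 0. Its unscaled intensity was 162105 to 320947 in PO and 404442 to 955365 in A+PO. Probe b7005_1_19 had ranks of 4.29, 0.0434, 2.82, 18.2, 31.4 and 12.8 in PO and of 9.58, 17.997, 20.9, 31.96, 42.3 and 34.6 in A+PO. It was higher on all 6 arrays by 14.6 points on average (SE 2.24, adjusted p = 0.234), with groups that overlap. It was a dim probe, detected in 2 PO and 5 A+PO samples, and its intensity ran from 67.9 to 445 in PO and from 144 to 335 in A+PO.

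Probe sets were compared by their contrast, the mean log2 value of a set's tested probes minus the median over all sets of the same sample, which no scaling of a whole channel can change. Before that step all 53 sets (100%) were lower in A+PO, by 0.74 to 2.78. By contrast, 8 of 53 sets (15.1%) were higher in A+PO and 2 (3.77%) lower in limma with Benjamini-Hochberg adjustment. All 8 higher sets had a positive contrast in PO, which means only that they lay above the median set. It ran from 1.21 in b7009, a set with a mean rank of 49.7 in PO, to 4.59 in b6955. Of the lower sets, b6995 had 1.48 in PO and b6939 had -1.22. Across the 53 sets the contrast difference correlated with the contrast in PO (Pearson's r 0.643, Spearman's rho 0.525; sets are not independent and share channels). The contrast difference thus still moved with brightness. After loess within arrays, 0 sets passed in either direction.

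Set b6985 had the largest contrast difference past the test, at 1.37 (SE 0.191, adjusted p = 0.000170, higher on 6 of 6 arrays), with 6 of its 13 probes tested. Its contrast was 2.40, 4.13, 4.22, 3.28, 4.80 and 3.63 in PO and 3.77, 4.79, 4.99, 5.17, 6.56 and 5.43 in A+PO, so that the groups overlap while each pair moved the same way. Set b6967, of which 18 of 21 probes were tested, differed by 1.20 (SE 0.154, adjusted p = 0.000151, 6 of 6 arrays). In mean rank neither passed: b6985 was higher on 3 of 6 arrays and lower on the other 3 (4.71, SE 2.68, adjusted p = 0.211), and b6967 differed by 1.58 (SE 0.679, adjusted p = 0.122). The lower sets were b6995, with a contrast difference of -0.67 (SE 0.147, adjusted p = 0.00333, 6 of 6 arrays), and b6939, with -0.58 (SE 0.174, adjusted p = 0.0273, 6 of 6 arrays). Set b6995 passed whichever of the 6 arrays was left out. Set b6939 did not pass without array 1, 2, 3 or 4, with contrast differences of -0.46, -0.53, -0.57 and -0.57 (adjusted p between 0.0626 and 0.101 in limma).

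By the mean rank of a set's tested probes, a measure added after the data were seen as a test across sets, 6 of 53 sets (11.3%) were lower in A+PO and 2 (3.77%) higher. The lower sets were b6962 (-6.47 points), b6939 (-4.23), b6943 (-3.86), b6948 (-3.46), b6956 (-2.76) and b6965 (-2.76), and the higher ones b6971 (3.39) and b6959 (2.33), with limma and Benjamini-Hochberg adjusted p from 0.0325 to 0.0373. They were weak calls. Without array 4 or array 6 none of the 53 sets was lower, and without any single one of arrays 2 to 6 none was higher. Without array 1, 8 were lower and 5 higher; without array 2, 3 or 5 the lower sets numbered 3, 1 and 3. No set passed among the probes detected in all 12 samples or with the processed signal.

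Sets b6959 and b6971 passed as higher by both contrast and mean rank. Set b6959 holds 193 (16.7%) of the tested probes. Its mean rank was 72.5, 70.8, 63.7, 66.9, 66.2 and 65.9 in PO 1 to 6 and 73.8, 72.8, 66.2, 69.3, 68.3 and 69.6 in A+PO 1 to 6. The groups overlap, since samples of an array lie close together, and the difference had a narrow range, from 1.38 on array 1 to 3.72 on array 6 (SE 0.537, adjusted p = 0.0346). Of its 193 tested probes, 140 had a positive mean rank difference and 53 a negative one, and 38 were higher on all 6 arrays where 1 was lower. Over all 1153 tested probes, 8.33% were higher and 7.55% lower on all 6 arrays, with a median difference of -0.20. Probes of a set share channels and are not replicates of its difference. Of its 324 probes, 58.5% ± 7.10 (SD, n = 6) were detected in PO and 58.1% ± 7.89 in A+PO. Set b6971, with 4 of 16 probes tested, had mean ranks of 56.5, 56.6, 51.9, 50.6, 54.2 and 52.9 in PO and of 58.6, 59.0, 52.9, 57.8, 58.5 and 56.0 in A+PO.

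Set b6939 was the only set past the test as lower by both measures, with a contrast call that was lost in 4 of 6 fits without 1 array and a mean rank call that was lost without array 4 or 6. Its mean rank was 22.7, 24.8, 43.6, 33.6, 30.8 and 28.7 in PO and 19.5, 21.6, 41.6, 27.5, 26.6 and 22.1 in A+PO, with array 3 high in both groups. The difference of -4.23 (SE 0.754, limma, adjusted p = 0.0325) rests on 7 tested probes of 36. Of these, 5 were lower on all 6 arrays, beside 7.55% of all tested probes. Set b6962, with the largest mean rank difference among the sets past the test, rests on 3 tested probes of 7 and ran from -12.2 on array 6 to -1.94 on array 5 (SE 1.44, adjusted p = 0.0346). Without the filter on dim probes its mean rank difference turned to 1.24 (limma, adjusted p = 0.619), and it did not pass without array 3, 4 or 6. By contrast it differed the other way, by 0.55 (SE 0.212, adjusted p = 0.0795, higher on 5 of 6 arrays).

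**Figure D4:**
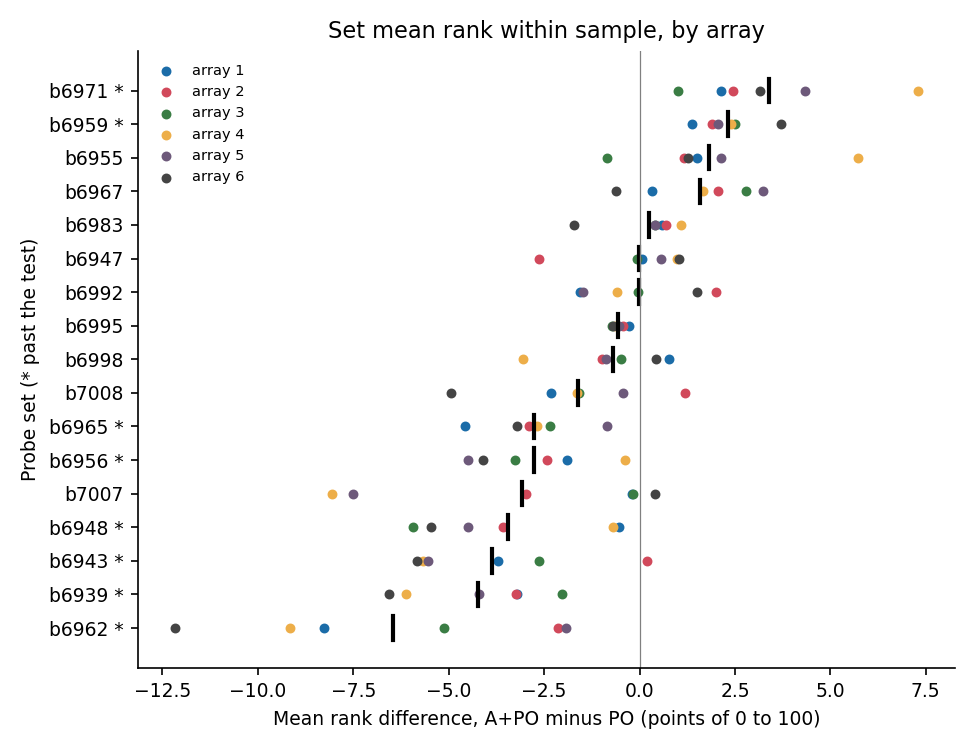
Difference in mean rank between A+PO and PO (horizontal axis, points of a scale of 0 to 100) for the 8 sets past the test (starred) and the 9 other described sets, with a point per array and a black bar for the mean. Starred sets lie on one side of 0 on all 6 arrays except b6943, which is positive on array 2.

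The 11 sets listed for description, with earlier results known, were mostly sets with many detected probes. Set b6955 had 66.4% ± 6.19 of its 165 probes detected in PO and 67.4% ± 7.19 in A+PO (SD, n = 6 each). Its contrast was higher by 1.12 (SE 0.180, adjusted p = 0.000306, 6 of 6 arrays), and its mean rank differed by 1.83 (SE 0.855, adjusted p = 0.137, higher on 5 of 6). Set b6947 was higher in contrast by 0.73 (SE 0.155, adjusted p = 0.00284, 6 of 6 arrays) with a mean rank difference of only -0.0085 (SE 0.652). Set b6995 had 75.3% ± 1.75 of its 137 probes detected in PO and 74.8% ± 3.05 in A+PO, and its mean rank was lower on 6 of 6 arrays by as little as 0.28 to 0.72 points (mean -0.56, SE 0.473, adjusted p = 0.375). Set b6965 was lower in mean rank on 6 of 6 arrays (SE 0.617, adjusted p = 0.0346), while its contrast differed by -0.25 (SE 0.148, adjusted p = 0.297). Of its 35 tested probes 28 had a negative mean rank difference and 8 were lower on all 6 arrays. Over all tested probes 7.55% were lower on all 6 arrays, and the median rank difference was -0.20. The detected share of b6965 was 50.5% ± 9.40 in PO and 47.7% ± 8.59 in A+PO, lower on 5 arrays and equal on the other.

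The other described sets did not pass by either measure. Set b6998 had a contrast difference of 0.49 (SE 0.175, adjusted p = 0.0654) and a mean rank difference of -0.70 (SE 0.649). Set b7007 had a mean rank of 59.1 ± 14.4 in PO and 56.0 ± 11.1 in A+PO, a difference of -3.09 (SE 1.35, limma, adjusted p = 0.123). On the negative side were 27 of its 33 tested probes, where the median difference over all tested probes was -0.20. Set b7008, the set of the probe with the largest log2 drop among the named ones, differed by -1.62 in mean rank (SE 0.823, adjusted p = 0.166). The mean ranks of b6983 and b6992 differed by 0.24 (SE 0.574) and -0.02 (SE 0.684). Both sets varied far more between arrays than between diets, with SDs of 11.2 and 18.5 points over the PO samples.

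Rank differences followed the base composition of the probes. Over the 1153 probes the rank difference was lower for probes with more guanines, with a Spearman's rho of -0.374 for the mean difference and of -0.449 to -0.177 on single arrays (negative on 6 of 6). Probes with 5 or fewer guanines (220 probes) were 2.58 points higher in A+PO (SD 0.766 over arrays, range 1.72 to 3.36). Those with 6 to 7 (218 probes) were 0.781 points higher (SD 0.417), those with 8 to 9 (341 probes) differed by -0.226 (SD 0.555), and those with 10 or more (374 probes) by -1.77 (SD 0.323, range -2.21 to -1.46). For cytosines rho was 0.0162, for adenines 0.242 and for thymines 0.188. For guanines and cytosines counted together it was -0.386. These are descriptions across probes, which overlap in sequence and share channels. Set b6959, with 193 of the tested probes and 5.24 guanines per probe on average, was itself 2.33 points higher. The bins and the rho do not separate the number of guanines from the set of a probe.

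Probes that differ in a single base gave the same direction when all pairs with a guanine were pooled. Among pairs of tested probes with a guanine in one and another base at that position in the other (749 pairs), the probe with the guanine had the lower rank difference by 0.823 points on average (SD 0.586 over arrays), on 6 of 6 arrays. Against adenine the difference was -0.950 (353 pairs, SD 0.292, negative on 6 of 6 arrays), against cytosine -0.742 (210 pairs, SD 0.872, 5 of 6) and against thymine -0.672 (186 pairs, SD 1.25, 4 of 6). Pairs without a guanine gave 0.332 for adenine against cytosine (166 pairs, 4 of 6 arrays positive), 0.386 for adenine against thymine (150 pairs, 5 of 6 positive) and -0.226 for cytosine against thymine (414 pairs, 4 of 6 negative). On the linseed arrays, whose A+LO samples were also in Cy5, the guanine pairs gave -0.697 (SD 0.492, negative on 6 of 6 arrays), and the rho with the number of guanines was -0.101. Single kinds of pair were less even there: guanine against thymine was negative on 3 of 6 arrays, and cytosine against thymine gave -1.14 (SD 2.00), a larger mean than that of the pooled guanine pairs.

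Sets past the test by mean rank differed in guanines along the same line, except b6965, a lower set just below the median number of guanines. The lower sets b6939, b6948, b6956, b6943, b6962 and b6965 averaged 12.4, 10.2, 9.75, 9.67, 9 and 8.2 guanines per tested probe, and the higher sets b6959 and b6971 averaged 5.24 and 7.25, beside a median of 8.29 over the 53 sets. Across those sets the mean rank difference and the mean number of guanines had a Pearson's r of -0.579. With the number of guanines regressed out within each array, an alternative chosen after seeing the data, no set passed in either direction. The part of the dye in these differences cannot be told apart from that of the diet.

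**Figure D5:**
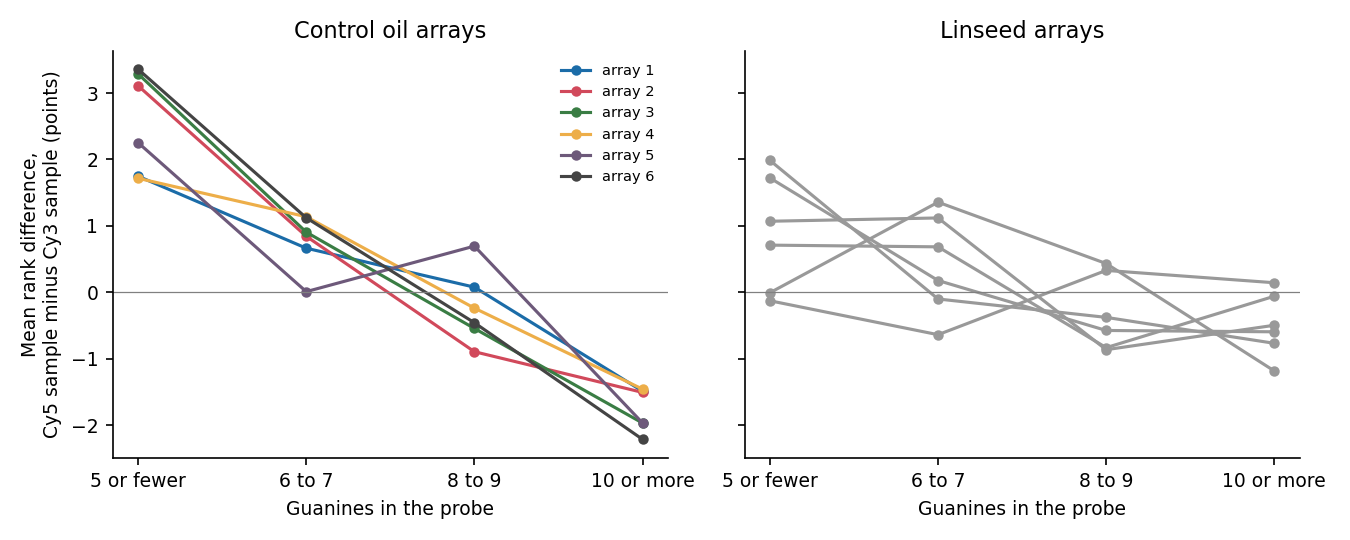
Mean rank difference between the Cy5 and the Cy3 sample of an array (vertical axis, points) by number of guanines in the probe, with a line per array, for the 6 control-oil arrays (left, A+PO minus PO) and the 6 linseed arrays (right, A+LO minus LO). On the control-oil arrays the mean runs from 2.58 at 5 or fewer guanines to -1.77 at 10 or more; on the linseed arrays it runs from 0.893 to -0.492.

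The linseed arrays allow a test of whether the within-array difference was another one with the other oil, in which a dye effect common to both slides cancels. They lie on a different slide, and the slide and the oil cannot be told apart. By rank, no probe passed: 0 of 1153 (0%) in limma with Benjamini-Hochberg adjustment, with 66 at an unadjusted p under 0.05. The probes with the smallest p were b6955_3_19, with a rank difference of 7.43 with control oil and -4.44 with linseed oil, and b6956_4_8, with -10.3 and 0.723 (adjusted p = 0.600 each). In A+PO 5 the first of these stood at 69.9, beside 90.6 to 98.0 in the other A+PO samples. Over all 1153 probes the rank differences of both slides correlated with a Pearson's r of 0.458, and over the 53 set mean ranks with 0.467. The log2 differences of the probes correlated with 0.304, and the contrast differences of the sets with only 0.0427.

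By set contrast, 22 of 53 sets (41.5%) differed between the slides, 14 with a more negative difference on the control-oil arrays and 8 with a more positive one. Set b6967 differed by 1.20 with control oil and by -0.42 with linseed oil, a gap of 1.62 (SE 0.412, adjusted p = 0.00568). Set b6948, a dim set with 6 of 44 probes tested, differed by -0.09 and 1.32, a gap of -1.41 (SE 0.296, adjusted p = 0.00516). Set b6985 had the same contrast difference on both slides, 1.37 and 1.36, with a gap of 0.0174 (SE 0.267, adjusted p = 0.967). After loess within arrays, and among the probes detected in all 12 control-oil samples, 0 sets differed between the slides.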

How the data were processed

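The deposited intensities are linear pixel values per spot and dye, written by Agilent Feature Extraction 10.5.1.1 per the file headers; no normalisation by the authors enters the mean signal and median local background used here. The deposited processed and background-subtracted intensities served as alternatives only. The deposited flags have no unit other than 0 and 1. Per the labels' protocols, 10 ng of DNA was amplified over 35 cycles, 1 µg labelled and 250 ng hybridised. The files also hold 1 dye channel with no sample, which was not used.

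Background was corrected by normexp (offset 50) per channel, followed by log2, averaging of a probe's spots without outlier marks and subtraction of the channel's 75th percentile over 405 probes detected in all 25 samples. Limma 3.58.1 (R 4.3.3) was run on the within-array differences, with Benjamini-Hochberg adjustment over all tested probes or sets; an adjusted p under 0.05 passed. The pairing comes from the array: deviations from the group means correlated at 0.867 to 0.940 within arrays and at most at 0.319 between them. Single values had exact permutation tests over 64 exchanges within arrays. The number of arrays limits the precision: the median SD over arrays was 0.820 in log2 and 6.13 in rank points, beside 0.0828 to 0.182 in log2 between spots of a probe. The tests were checked on simulated data with errors independent between probes. That check does not cover probes of a set that vary together, nor a difference that changes with brightness. The eBayes fit of set log2 values had an infinite prior df, so no p is given for them.

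Named probes and sets are at most 2 higher and 2 lower past each test, probes with the same sign on all 6 arrays and detected in all samples of a group, otherwise the smallest p, plus 11 sets. Members and lists were chosen with earlier results of these data known. The plots come from matplotlib 3.10.9 (Python 3.11.15).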

Additional observations from a re-analysis of the deposited data

Results flagged for a closer look

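On array 1 both samples stood apart from the other 5 of their group in signal at background level, by the ratio of the gap to the range. PO 1 had a median raw intensity of 683.9 (next 129.4) and a negative-control median of 445.4 (next 99.45), and A+PO 1 had 240.4 (next 89.14) and 123.1 (next 74.61), with 48.18% of its spots marked as outliers (next 26.47%). Among the set and probe values, single samples stood apart for the mean rank of b6967 in PO 6 (81.53, next 68.47), the mean rank of b6939 in A+PO 3 (41.59, next 27.52) and the rank of b6955_3_19 in A+PO 5 (69.86, next 90.59). Single arrays stood apart for the mean rank difference of b6983 on array 6 (-1.727, next 0.3942), that of b6947 on array 2 (-2.635, next -0.05867) and the rank difference of b6959_3_105 on array 4 (20.03, next 11.88). In all, 11 of 78 groups of 6 values held such a value, where chance gives about 1 in 20.

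The contrast difference of 22 sets differed between the control-oil and the linseed slide in limma, with gaps of 1.62 for b6967 and -1.406 for b6948. Outside the probes tested, a median of 9.167% of the spots of the MCR probes were well above background over the 12 samples, beside 7.675% of the negative control spots.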

How the results depend on the processing

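The limits are few arrays, a dye confounded with the diet, and signals that for most probes lie near background, where 3.95% to 15.6% of the negative control spots of a sample also counted as well above it. Set mean ranks, the kept outlier spots and the guanine regression were added after seeing the data. Of the single probes and sets named, 387 of 501 recomputed values kept their direction and their side of the threshold. Many of these were short of it in the main fit and stayed so. Of the rest, 76 became weaker, 31 changed sign and 7 became stronger. Of the recomputed counts and sample-level results, 108 stayed the same, 38 became weaker, 26 moved, 6 became stronger and 1 changed sign. A weaker count fell to none, and a moved one changed beyond a set ratio. Without 1 array no exact test could pass.

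Without the pairing by array, that is with no replicate block, 12 probes were lower in log2, 0 sets passed in contrast or mean rank in either direction, and the pseudo-F of 1.432 had an exact permutation p of 0.1905; the Shannon index kept p = 0.04762 (exact permutation test). Among the 626 probes detected in all 12 samples, 389 were lower in log2. Without a filter on dim probes, 4214 of 4441 were lower. Of the 1153 tested probes, 0 were lower after loess or on the median of the tested probes. On the median of all probes 237 were lower, and without scaling 493. Higher were 511 on the median of the tested probes, 119 on the median of all probes and 133 without scaling. In rank, 26 probes were higher and 3 lower over 4 groups. The pseudo-F with the processed signal was 0.844 (exact permutation p = 0.0625). Detection by 3 background SD gave -2093, where the negative controls of every PO sample also stood above the local background.

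Sets higher in contrast were 0 after loess, 13 without a filter and 14 with outlier spots kept. Sets lower in contrast were 10 with the background-subtracted and 4 with the processed signal, 5 without a filter, 5 among probes detected in all 12 samples, 4 over 4 groups and 0 after loess. Sets higher in mean rank were 0 with the processed signal, after loess, with guanines regressed out and among probes detected in all 12 samples, 7 without a filter and 5 with outlier spots kept; lower were 0, 3, 0 and 0 in the first 4 of these and 14 with outlier spots kept. Between slides, 8, 6 and 12 sets differed with the background-subtracted signal, the processed signal and no filter, and 0 after loess and among probes detected in all 12 samples. Without a filter, and among probes detected in all 12 samples, the sets tested need not be the 53 of the main test. The causes were not tested.

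Without 1 array, the Shannon difference ran from -0.2983 to -0.2583 and the pseudo-F from 0.9139 to 1.859 (p = 0.0625, the smallest possible for 5 arrays in an exact permutation test), the detected probes from -30.8 to 16.2, the sets lower in contrast from 1 to 3 and higher from 8 to 12, and by mean rank lower from 0 to 8 and higher from 0 to 5. The probes lower in log2 ran from 874 to 918 and the sets differing between slides from 19 to 26.

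Where a sign changed, the value under that alternative was short of the threshold. By contrast, b6998, b6983, b7007 and the gap of b6948 between slides turned to -0.03189, -0.1376, -0.5611 and 0.03471 after loess; b6983, b7007 and b6992 to -0.17, -0.29 and -0.13 without a filter; b7007 and b6992 to -0.30 and -0.18 among probes detected in all 12; b7008 to 0.01267 with outlier spots kept; and without 1 array, b6992 ran from -0.01462 to 0.4364 and b7007 from -0.1639 to 0.2613. By mean rank, b6947 and b6992 turned to 0.08205 and 0.04762 with the processed signal and to 0.2534 and 0.3044 after loess; b6947 to 0.3261 with the background-subtracted signal; b6962, b6955, b6998, b6983, b7007 and b6967 to 1.24, -0.716, 2.275, -2.063, 0.1728 and -0.2128 without a filter; b6983 to -0.4082 among probes detected in all 12; b6995 and b6947 to 0.6992 and 0.00199 with guanines regressed out. Without 1 array, b6992 ran from -0.4296 to 0.2837 and b6947 from -0.2194 to 0.5168.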
